A study of Mus musculus with 15 samples.

Results

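The genes examined were 9 that encode proteins of the myelin sheath or of the mature oligodendrocyte that makes it: Mbp, Mobp, Mag, Mog, Mal, Cnp, Cldn11, Ermn and Opalin. They were chosen by symbol from a table of 30386 genes, and all 9 passed the filter on low counts that left 11718 genes to test. The table holds raw read counts from mouse brain made with QuantSeq, which sequences only the 3′ end of each polyadenylated transcript; reads per gene therefore do not grow with transcript length in principle. The 15 libraries form 3 groups of 5. WT_PBS are wild types injected with phosphate-buffered saline. Het_PBS are Tbx1+/- mice, which carry 1 mutant copy of the T-box transcription factor gene Tbx1, injected with saline. Het_B12 are Tbx1+/- mice injected with vitamin B12 at 20 mg/kg. All mice were injected into the peritoneum 2 times a week for 4 weeks from 4 weeks of age. The vitamin was therefore compared with saline in heterozygotes only; B12-treated wild types were not analysed here. The labels call the tissue both a hemisphere and the whole brain, so each library mixes many regions and cell types.

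Oligodendrocytes wrap axons of the central nervous system in compacted membrane. Myelin basic protein (Mbp) and Mobp hold the inner faces of that membrane together, Mag sits on the surface next to the axon, Mog on the outermost surface, and Cldn11 forms the tight junctions between the layers. Cnp keeps cytoplasmic channels open, Mal is a raft-associated membrane protein involved in sorting myelin components, Ermn is a cytoskeletal protein that appears late in the cell's maturation, and Opalin is a transmembrane glycoprotein of mature oligodendrocytes. In the young adult mouse brain these genes are read as marks of mature, myelinating cells.

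Library totals ran from 1683258 counts in Het_PBS 5 to 2746122 in Het_B12 5, and 3 reads, the detection floor, equalled 1.09 to 1.78 CPM (counts scaled to library size, here with TMM factors). The first principal component placed Het_B12 at 19.1 to 32.8, WT_PBS 3 beside them at 17.8, and the other PBS libraries at -22.4 to -10.2. Het_PBS 5 stood apart on the second component at -43.5, and the number in its label, which may be an animal's, is also that of Het_B12 1. The comparisons between groups were also fitted without each single library. They were fitted again without WT_PBS 3 and Het_PBS 5 together, and without Het_PBS 5 and Het_B12 1 together. Ratios between genes, summed levels and correlations were not recomputed without these libraries. Across the PBS wild types, PBS heterozygotes and vitamin heterozygotes, the mitochondrial share of counts was 7.29% ± 1.32, 9.75% ± 1.33 and 8.47% ± 0.688 (SD, n = 5 each). The share of Gm42418, where ribosomal RNA fragments tend to be counted, was 11.9% ± 1.78, 8.52% ± 1.73 and 5.29% ± 1.25. Tbx1 itself had 3, 3 and 1 reads in the 3 groups, at or under the floor, so it did not check the genotype labels. Within each group the 5 labels carry different numbers, which may be those of separate animals, but the labels do not say so. The p-values given here reflect library-to-library spread.

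The 9 genes together accounted for 0.431% ± 0.108 of the WT_PBS counts, 0.491% ± 0.103 of those of Het_PBS and 0.4% ± 0.0388 of those of Het_B12. Mbp was the most abundant at 2129 ± 752 CPM (SD, n = 5) in WT_PBS, 2554 ± 662 among Het_PBS libraries and 1929 ± 253 among Het_B12. Mobp followed at 1077 ± 292, 1185 ± 176 and 739 ± 51.9 CPM. Cnp, Mag and Mal formed a middle level between 247 and 356 CPM in their group means. Cldn11 and Ermn lay lower, and Mog at 46.7 ± 16.7 CPM and Opalin at 32.9 ± 3.17 CPM were lowest in WT_PBS. In WT_PBS the ranges of Mbp and Mobp overlapped, as did those of Cnp with Mag, Mag with Mal, Cldn11 with Ermn, and Mog with Opalin. In Het_B12 only Cnp with Mag and Mag with Mal overlapped as neighbours in this order. Counting error was 1.36% to 2.27% of the value for Mbp and Mobp but larger for Opalin, which had 27 to 99 reads per library, and Mog, which had 68 to 151.

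The label of the set was checked against marker genes of other cells. Of 7 Schwann cell markers, which mark the myelinating cell of peripheral nerve, Pmp2 had 0 reads in the 15 libraries, Prx 13 and Egr2 18, against 75865 reads of Mbp and 34275 of Mobp. Pmp22 (27.5 ± 5.94 CPM in WT_PBS) and Drp2 (37.5 ± 3.6) passed the filter on low counts, at levels like that of Opalin, and the list summed to 68.5 ± 6.43 CPM. The other mature oligodendrocyte markers, 20 of 20 tested, summed to 1948 ± 271 CPM in WT_PBS, whereas the 10 markers of oligodendrocyte precursors summed to 179 ± 6.87 CPM. Markers of mature oligodendrocytes were thus detected throughout, as the label of the set has it, while 2 Schwann cell markers were also well detected.

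**Figure D1:**
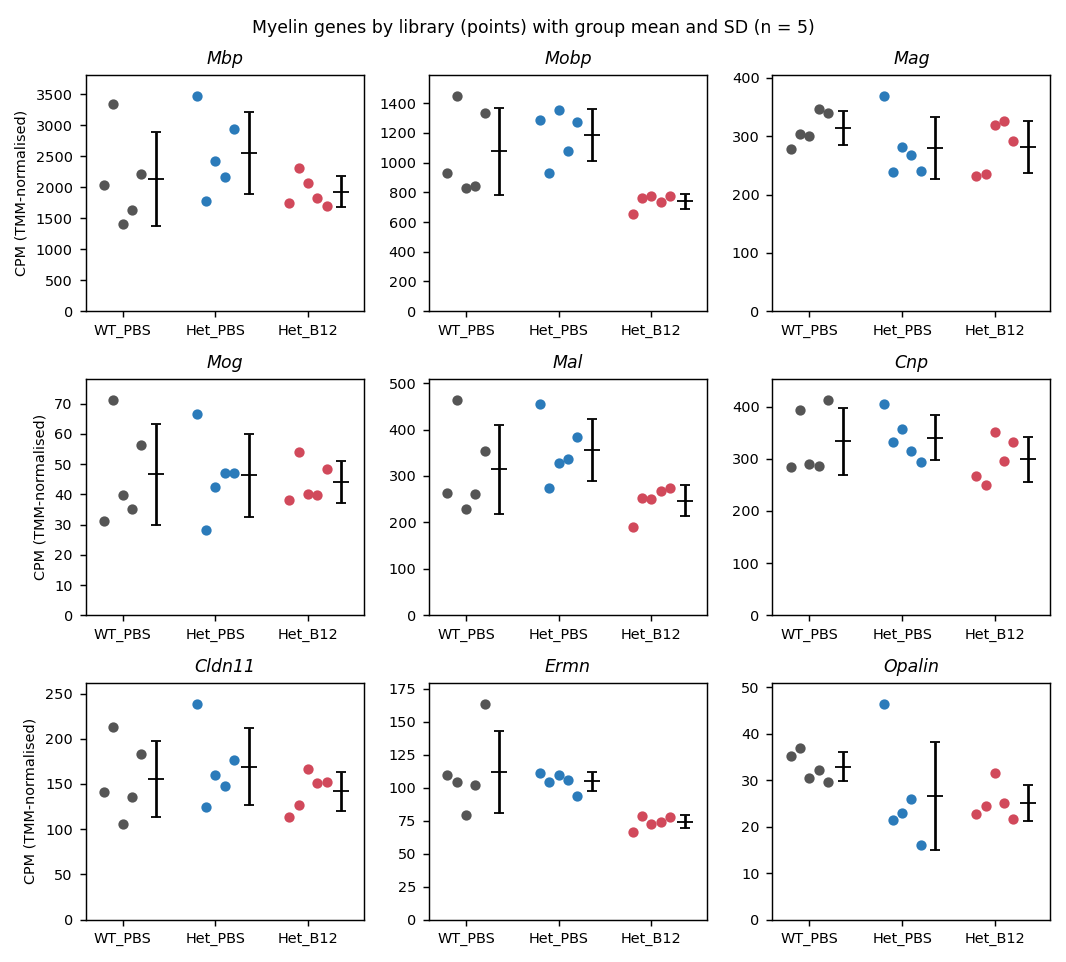
Level of each of the 9 myelin genes in each library, in TMM-normalised CPM on linear axes that start at 0; points are libraries and the bar with its error is the mean ± SD of 5 libraries per group. For Mobp the Het_B12 points lie between 651 and 774 CPM, under every PBS library (832 CPM and above), and for Ermn between 66.4 and 78.5 CPM, under every PBS library (78.9 CPM and above).

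Vitamin B12 was compared with saline among the heterozygotes. Of the 9 genes, 3 fell in Het_B12 (Mobp, Mal and Ermn), none rose, and 6 did not pass the test. Over all genes tested, 851 (7.26%) passed in either direction and 3.79% passed as lower. For 2 of the 9, Mobp and Ermn, every Het_B12 library lay under every Het_PBS library, against 4.07% of all genes. The log2 fold change lay below 0 for 8 of the 9 genes, against 48.6% of all genes, with a median of -0.246 beside 0.0119 over all genes. Without Het_PBS 1 the median was -0.118 and 6 of the 9 lay below 0, with Mag (0.13), Mog (0.11) and Opalin (0.2) above it. In such bulk tissue, fewer oligodendrocytes and less of this RNA per oligodendrocyte cannot be told apart.

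Mobp, the second most abundant of the set, stood at 1290.1, 931, 1354, 1075 and 1273 CPM in Het_PBS 1 to 5. In Het_B12 1 to 5 it stood at 651, 765, 774, 735 and 772 CPM. The Het_B12 libraries were all lower and closer together than the saline ones. The log2 fold change was -0.68 ± 0.13 SE (95% interval -0.94 to -0.42, edgeR adjusted p = 0.000727) and the level fell by 37.6%. Mobp passed under each of the 20 alternatives run with an adjusted p, with a largest p of 0.00896.

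Mal was at 454, 274, 329, 337 and 384 CPM in Het_PBS and at 191, 252, 249.9, 267 and 274 CPM in Het_B12. The groups met at 274 CPM, where Het_PBS 2 was the lowest saline library. Mal fell by 0.52 ± 0.14 on the log2 scale (interval -0.82 to -0.23, edgeR adjusted p = 0.0192), that is, the level fell by 30.5%. The call rested on single libraries: without Het_PBS 1, the highest, it was -0.42 with an adjusted p of 0.0844, and without Het_B12 1, the lowest, -0.45 with 0.0794. Without both Het_PBS 5 and Het_B12 1 it was -0.42 with 0.127.

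Ermn was at 111, 104, 109.6, 106 and 93.3 CPM in Het_PBS and at 66.4, 78.5, 72.7, 74.3 and 78.1 CPM in Het_B12, with no overlap. It fell by 0.5 ± 0.14 on the log2 scale (interval -0.78 to -0.22, edgeR adjusted p = 0.0199), that is, the level fell by 29.4%. Without Het_B12 1 the value was -0.47 with an adjusted p of 0.0603, and without Het_PBS 5 and Het_B12 1 together -0.51 with 0.0535.

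Since these 3 genes moved in the same direction, the sequence just before their start sites is shown, beside that of Mag, which had a similar mean in both heterozygous groups. Start-site windows from RefSeq (GRCm38.p6) were used for 8 of the 9 genes. None was used for Mbp, and the windows used do not cover every chromosome. The windows printed run 5′ to 3′ on the gene's own strand and stop before the first annotated exon base: Mobp at chr9:120149492-120149706 (plus strand), Mal at chr2:127656696-127656945 (minus), Ermn at chr2:58052865-58053114 (minus), and Mag at chr7:30914923-30915172 (minus), the window of its most upstream start.
Mobp: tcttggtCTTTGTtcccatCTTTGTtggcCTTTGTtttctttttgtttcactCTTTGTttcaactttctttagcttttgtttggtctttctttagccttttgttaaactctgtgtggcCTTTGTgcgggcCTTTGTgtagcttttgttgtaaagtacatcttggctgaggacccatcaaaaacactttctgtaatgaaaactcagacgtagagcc
Mal: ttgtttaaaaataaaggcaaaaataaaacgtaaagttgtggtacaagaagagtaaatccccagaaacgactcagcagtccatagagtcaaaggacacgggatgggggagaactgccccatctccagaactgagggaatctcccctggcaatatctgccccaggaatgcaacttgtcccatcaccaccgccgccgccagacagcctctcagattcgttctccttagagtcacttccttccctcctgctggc
Ermn: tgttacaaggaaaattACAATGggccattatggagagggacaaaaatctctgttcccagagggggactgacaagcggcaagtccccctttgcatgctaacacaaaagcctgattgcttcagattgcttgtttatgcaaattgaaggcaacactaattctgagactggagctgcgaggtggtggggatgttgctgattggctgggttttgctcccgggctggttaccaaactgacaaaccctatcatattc
Mag: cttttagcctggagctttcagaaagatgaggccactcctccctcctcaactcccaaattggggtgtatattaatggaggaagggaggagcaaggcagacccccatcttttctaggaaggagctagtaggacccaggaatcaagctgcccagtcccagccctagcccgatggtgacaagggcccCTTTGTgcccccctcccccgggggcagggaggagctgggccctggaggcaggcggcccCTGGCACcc
Capitals mark matches, on either strand, to 6 motifs searched: ACAAAG and ACAATG, short words bound by Sox-family factors, CTGGCAC and CTGGTAC, words of the Myrf motif, the E-box CAGCTG, and TATAAA. No motif contains another. Mobp held 6 matches to ACAAAG, all read as its reverse complement CTTTGT. That word occurred at least once in 16.5% of the 32817 start-site windows of 250 bases that were used. The Mobp window printed is 215 bases long because its last bases are annotated as exon, and all 6 matches lie in the part shown. This run was noticed after the counts had been seen. Of the 32817 windows, 1 (0.00305%) held 6 or more matches to ACAAAG, and the Mobp window was among those counted. Whether such a run goes with the fall of Mobp was not tested. Ermn held 1 match to ACAATG, which 10.7% of windows contain, and Mag 1 to ACAAAG and 1 to CTGGCAC (4.19% of windows). Mal held none of the 6 words, so the 3 genes that fell shared no match in these windows. The shares for the words with no match here were 1.83% for CTGGTAC, 13% for CAGCTG and 12.4% for TATAAA. A match is a run of letters and not evidence of binding.

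In the GENCODE M21 annotation of GRCm38, Mobp spans 120149707 to 120181484 on chromosome 9, Mal 127633226 to 127656695 and Ermn 58045113 to 58052864 on chromosome 2, and Mag 30899176 to 30914873 on chromosome 7. All 4 are protein-coding. An annotated gene, Galnt5, overlaps Ermn on the opposite strand and had 0 reads. Cnp overlaps Dnajc7 on the opposite strand, which had 4446 reads, equal to 39.2% of those of Cnp. The sources used here do not state the strand setting of the counting, so the values of Cnp are uncertain.

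The other genes of the compact membrane and its surfaces did not pass. Mbp was at 3468, 1784, 2418, 2159 and 2941 CPM in Het_PBS and at 1742, 2302, 2069, 1831 and 1700 CPM in Het_B12. The groups overlapped, and the log2 fold change was -0.4 ± 0.16 (interval -0.72 to -0.09, edgeR adjusted p = 0.113). Mbp did pass with no filter on low counts (0.00929), when only the heterozygotes were fitted (0.0192) and without Het_PBS 2, its lowest saline library (-0.51, 0.0444). Without Het_PBS 1, its highest, it was at -0.27 (0.347). Cldn11 was at -0.25 ± 0.15 (interval -0.56 to 0.07) and Cnp at -0.19 ± 0.12 (-0.43 to 0.06). Both intervals hold 0, and that of Cldn11 also reaches the estimates for Mal and Ermn. Without Het_PBS 1 Cldn11 was at -0.09 (adjusted p = 0.798 by edgeR) and Cnp at -0.12.

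Mag, the adhesion molecule facing the axon, was at 369, 239, 281, 268 and 239.8 CPM in Het_PBS and at 232, 236, 319, 326 and 292 CPM in Het_B12. The ranges overlapped over most of their length. The log2 fold change was 0.01 ± 0.12, and the 95% interval of -0.23 to 0.25 did not reach the estimates for Mobp, Mal or Ermn. Mog was at -0.06 ± 0.2 (interval -0.46 to 0.34) and Opalin at -0.09 ± 0.21 (-0.51 to 0.34). These are the least abundant of the set, with the widest intervals. Whether the genes that passed differ from those that did not was not tested. Opalin in Het_PBS 1 was 46.3 CPM against 16.1 to 26 in the other 4 libraries, and without Het_PBS 1 its log2 fold change was 0.2 rather than below 0.

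As a description with no test, each gene was also set against Mag in the same library, which removes whatever scales all of them alike. The log2 ratio of Mobp to Mag was 2.09 ± 0.24 in Het_PBS (1.81 to 2.41) and 1.41 ± 0.2 in Het_B12 (1.17 to 1.69), with no overlap. Mal to Mag was at 0.35 ± 0.19 (0.2 to 0.68) and -0.18 ± 0.18 (-0.35 to 0.09), again with no overlap. Ermn to Mag was at -1.4 ± 0.2 and -1.91 ± 0.23, with ranges of -1.73 to -1.2 and -2.13 to -1.59 that overlapped. In WT_PBS the ratio of Mobp to Mag was 1.74 ± 0.39, with a range of 1.28 to 2.25 that overlapped both other groups. In its own CPM Mal did meet between Het_B12 and Het_PBS, at 274 CPM, so its lack of overlap was seen only relative to Mag. The ratios of Mbp, Mog, Cnp, Cldn11 and Opalin to Mag overlapped between these groups. Mag itself, the only gene of the 9 above 0 in Het_B12 against Het_PBS, was at 0.01. The ratios therefore largely restate each gene's own difference. The share of all genes without overlap relative to Mag was not counted.

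**Figure D2:**
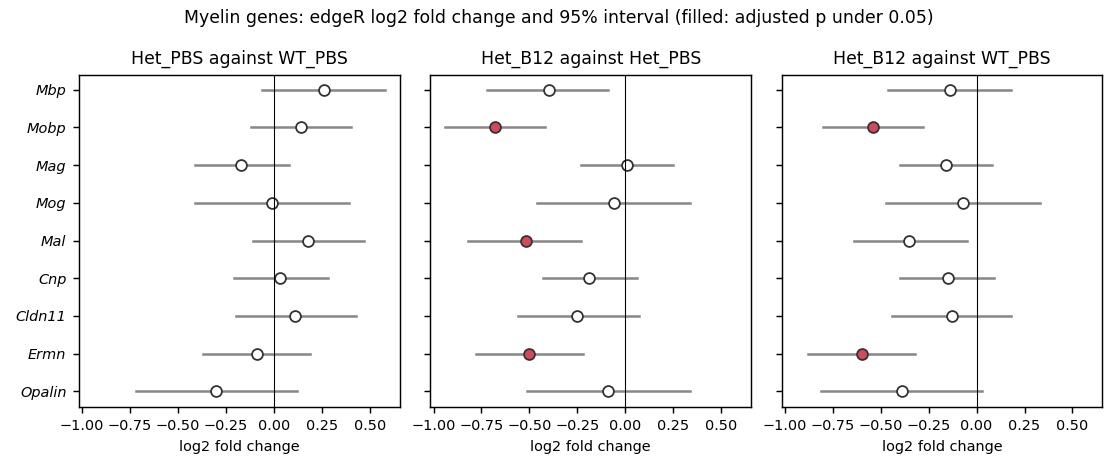
log2 fold change of each of the 9 genes (points) with its 95% interval (bars) in the 3 comparisons, filled where the edgeR adjusted p was under 0.05. In Het_B12 against Het_PBS only Mobp (-0.68), Mal (-0.52) and Ermn (-0.5) are filled, in Het_B12 against WT_PBS only Mobp (-0.54) and Ermn (-0.6), and none in Het_PBS against WT_PBS.

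Heterozygotes and wild types under saline were compared to ask what 1 mutant copy of Tbx1 goes with. None of the 9 genes passed, and neither did any other gene tested (0%). At an unadjusted p under 0.05, 879 genes (7.5%) were counted by edgeR, and none passed adjusted by DESeq2 or limma-voom. The log2 fold change lay above 0 for 5 of the 9 genes and below it for 4, where 51.1% of all genes lay below 0, with a median of 0.0319 beside -0.00698 over all genes, and no gene of the set had groups that did not overlap (0.836% of all genes).

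The largest differences were those of Opalin, at -0.3 ± 0.21 (interval -0.72 to 0.12), and Mbp, at 0.26 ± 0.16 (-0.06 to 0.58). Mobp was at 928, 1448, 832, 841 and 1335 CPM in WT_PBS, a range that took in every Het_PBS library, and its log2 fold change was 0.14 ± 0.13 (interval -0.12 to 0.4). Mal was at 0.18 ± 0.14 (-0.11 to 0.47), Mag at -0.17 ± 0.12 (-0.41 to 0.08) and Ermn at -0.09 ± 0.14 (-0.37 to 0.19). Cldn11 was at 0.11 ± 0.15, and Cnp (0.03 ± 0.12) and Mog (-0.01 ± 0.2) lay nearest 0. Single libraries moved these values: without Het_PBS 1 Opalin was at -0.59, Mag at -0.29, Mbp at 0.13 and Mal at 0.07, and without WT_PBS 2 Mbp was at 0.48, Mobp at 0.27 and Mal at 0.36. None passed in those fits. For 4 of the 9 genes the highest group mean was in WT_PBS and for 5 in Het_PBS. Within WT_PBS the libraries themselves differed widely: WT_PBS 2 was highest for 6 genes and WT_PBS 3 lowest for 5.

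Het_B12 was also compared with WT_PBS, which changes genotype and treatment together and shares Het_B12 with the vitamin comparison and WT_PBS with the genotype comparison. Here 2 of the 9 genes fell, Mobp and Ermn, where 859 of all genes (7.33%) passed and 4.11% passed as lower. All 9 lay below 0, against 49.2% of all genes, with a median of -0.159 beside 0.00732 over all genes. Without WT_PBS 3 the median was -0.261, and without WT_PBS 2 Mbp (0.08), Mog (0.12) and Cldn11 (0.0017) lay above 0. Mobp and Ermn again had no library in common range with WT_PBS, against 2.94% of genes lower without overlap.

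Mobp fell by 0.54 ± 0.13 on the log2 scale against WT_PBS (interval -0.8 to -0.28, edgeR adjusted p = 0.00668), so that the level fell by 31.3%, and passed under each of the 20 alternatives with an adjusted p. Ermn was at 109.6, 104, 78.9, 102 and 163 CPM in WT_PBS, where WT_PBS 3 lay just above the highest Het_B12 library. It fell by 0.6 ± 0.14 (interval -0.88 to -0.32, adjusted p = 0.00588), so that the level fell by 33.9%. Without WT_PBS 5, the highest library, Ermn was at -0.42 with an adjusted p of 0.0586.

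Mal did not pass against WT_PBS, at -0.35 ± 0.14 (interval -0.64 to -0.05, edgeR adjusted p = 0.149). Its WT_PBS libraries stood at 263, 463, 229.6, 261 and 354 CPM, and without WT_PBS 3, the lowest, the value was -0.44 with an adjusted p of 0.0381. Without WT_PBS 2, the highest, it was -0.17 with 0.502. Opalin was at -0.39 ± 0.21 (interval -0.81 to 0.03), and Mbp at -0.14 ± 0.16 (-0.46 to 0.18). Mag (-0.16 ± 0.12), Cnp (-0.15 ± 0.12), Cldn11 (-0.13 ± 0.15) and Mog (-0.07 ± 0.2) also did not pass. A test for any difference among the 3 groups passed 3 of the 9 genes, where 7.75% of all genes passed: Mobp (edgeR adjusted p = 0.00121), Ermn (0.0082) and Mal (0.0438). The count was 2 with a mean count of at least 50, without WT_PBS 5, without Het_PBS 1, 3, 4 or 5, and without any 1 of the Het_B12 libraries. It was 4 without WT_PBS 2 or with no filter on low counts.

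The 9 genes did not vary as 1 block from library to library. Over 36 pairs, deviations from the group means of log2 CPM correlated with a median Pearson's r of 0.54 and a range of 0.13 to 0.93. These values describe 15 libraries whose genes share depth and scaling. Mal and Cldn11 were the closest pair (0.93), followed by Mobp and Mal (0.88), Mbp and Mal (0.86) and Mog and Mal (0.86). At the other end were Ermn with Opalin (0.13), Mobp with Opalin (0.16) and Mbp with Mag (0.21), although Mag and Opalin stood at 0.65 with each other. The spread of Ermn was near its counting error in Het_PBS (6.77% and 6.64%) and Het_B12 (6.66% and 7.17%), but not in WT_PBS (28% and 6.73%). That of Opalin was under it in WT_PBS (9.63% and 12.1%) and above it in Het_PBS (43.7% and 13.8%). The part of counting error in the low values was not tested. Without the 2 libraries farthest from the median of the set, WT_PBS 2 and Het_PBS 1, the r over libraries of Mobp and Mal was 0.91, as it was with them. That of Mal and Cldn11 went from 0.89 to 0.78, of Mbp and Mal from 0.86 to 0.71, of Mog and Mal from 0.7 to 0.41, and of Mbp and Mag from 0.11 to -0.32. Het_PBS 1 was the highest of its group for 8 of the 9 genes, and Het_B12 1 the lowest of its group for 6.

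**Figure D3:**
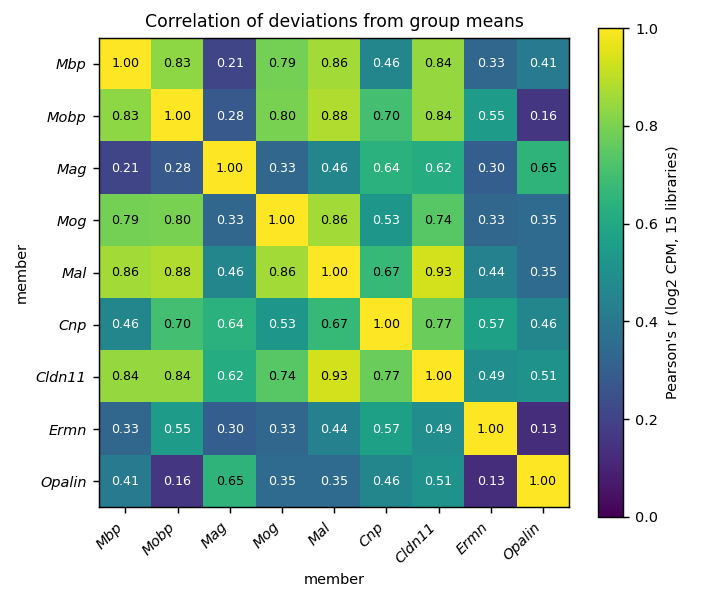
Pearson's r between the 9 myelin genes, computed from deviations of log2 CPM from the group means over 15 libraries, with both axes listing the genes and colour giving r. The highest value is Mal with Cldn11 (0.93) and the lowest Ermn with Opalin (0.13), while Mag and Opalin stand at 0.65.

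The genes outside the set whose levels followed its mean standardised level most closely over the 15 libraries were named by their Pearson's r. The first was Hmgcs1, an enzyme of cholesterol synthesis (r = 0.9, Spearman's rho = 0.87, and r = 0.76 without the 2 farthest libraries). Apopt1 (0.83), the astrocyte water channel Aqp4 (0.83), the neuroendocrine chaperone Scg5 (0.82) and the chloride transporter Slc12a2 (0.82) came next. Cyp51, a further enzyme of cholesterol synthesis (0.8), the respiratory chain subunit Uqcrq (0.79) and the fucosyltransferase Fut9 (0.79) completed the 8. The value for Cyp51 rested on the 2 farthest libraries, being 0.44 without them. Of the 50 closest genes, 5 belonged to an oligodendrocyte or myelin list (Olig1, Lpar1, Ugt8a, Bcas1 and Enpp6), and 7 to any list used here. In Het_B12 against Het_PBS, Aqp4 fell (-0.61 ± 0.14, edgeR adjusted p = 0.00457), as did Uqcrq (-0.44 ± 0.11, 0.0106), and Hmgcs1 was at -0.37 ± 0.12 (0.0518). These genes were ranked without removing group means, and the set's mean standardised level was -1.2 to -0.1 in Het_B12. A lower level in Het_B12 is therefore partly built into the choice.

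Other genes of myelin and of the oligodendrocyte were read from the same fit of Het_B12 against Het_PBS. Of 14 other myelin protein genes, 3 fell and none rose, with a median log2 fold change of -0.19. Bcas1, which marks oligodendrocytes that are forming myelin, fell from 282 ± 14.5 to 195 ± 29.2 CPM (-0.53 ± 0.12, edgeR adjusted p = 0.00482) and passed under each of the 20 alternatives. Tppp, a tubulin-binding protein of oligodendrocytes (-0.36 ± 0.1, 0.0208), and the lysophosphatidic acid receptor gene Lpar1 (-0.46 ± 0.14, 0.0345) also fell, but rested on single libraries. Tppp did not pass without Het_PBS 4, Het_B12 1 or Het_B12 2 (largest adjusted p 0.0644), and Lpar1 did not pass without Het_PBS 1, Het_PBS 4, Het_B12 1, Het_B12 3 or Het_B12 4 (0.126). The deacetylase gene Sirt2 (0.44 ± 0.15, 0.0544) had the smallest p of those that did not pass.

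Of 8 tested among 9 genes for myelin lipids or their handling, 1 rose and none fell, with a median of -0.00947. The gene that rose was Pex5l, which is also expressed in neurons (0.5 ± 0.13, edgeR adjusted p = 0.0155) and it did not pass without Het_PBS 4 or Het_B12 1, or without Het_PBS 5 and Het_B12 1 together (largest adjusted p 0.132). Fa2h, which makes 2-hydroxylated fatty acids for myelin galactolipids, was at 0.63 ± 0.27. Ugt8a, which makes galactosylceramide, was at -0.32 ± 0.17, and Cers2 at -0.45 ± 0.18. Fa2h, Ugt8a and Cers2 did not pass. Of 20 other mature oligodendrocyte markers, 1 fell, the lipocalin gene Apod (-0.44 ± 0.12, edgeR adjusted p = 0.0161), and the median was 0.0755. Apod did not pass without Het_PBS 3, Het_PBS 5 or Het_B12 4 (largest adjusted p 0.0891, without Het_PBS 5 and Het_B12 1 together). Their summed level was 1931 ± 107 CPM in Het_PBS and 1891 ± 128 in Het_B12.

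Of 9 tested among 11 oligodendrocyte transcription factor genes, 1 rose, the zinc finger gene Zfp536 (0.63 ± 0.18, edgeR adjusted p = 0.0231), and the median was 0.0414. Zfp536 did not pass without Het_PBS 2, Het_PBS 4 or Het_B12 1 (largest adjusted p 0.0899, without Het_PBS 5 and Het_B12 1 together). Sox10 was at 0.32 ± 0.16, Olig1 at -0.26 ± 0.16 and Myrf, a factor required for myelin gene expression, at 0.48 ± 0.33. Sox10, Olig1 and Myrf did not pass, and of the 9 tested, 5 lay above 0 and 4 below. None of the 10 precursor markers passed, with a median of 0.054. The largest difference among them, that of Cspg4, the NG2 proteoglycan gene, was 0.79 ± 0.32 (adjusted p = 0.134).

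On the axonal side of the sheath, 4 of 12 genes of myelinated axons and nodes rose, where 3.47% of all genes passed as higher, and none fell, with a median of 0.278. They were the juxtaparanodal potassium channel gene Kcna1 (0.5 ± 0.12, edgeR adjusted p = 0.00589), the nodal scaffold gene Ank3 (0.36 ± 0.09, 0.0106), the nodal sodium channel gene Scn8a (0.41 ± 0.11, 0.0127) and the spectrin gene Sptbn4 (0.67 ± 0.19, 0.0214). With an offset for transcript length Ank3 (0.178) and Scn8a (0.187) did not pass, and neither did Sptbn4, which was also lost without Het_PBS 5 or Het_B12 5 (largest adjusted p 0.106). Kcna1 passed under each of the 20 alternatives. The 3 myelin genes that fell still passed with that offset.

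**Figure D4:**
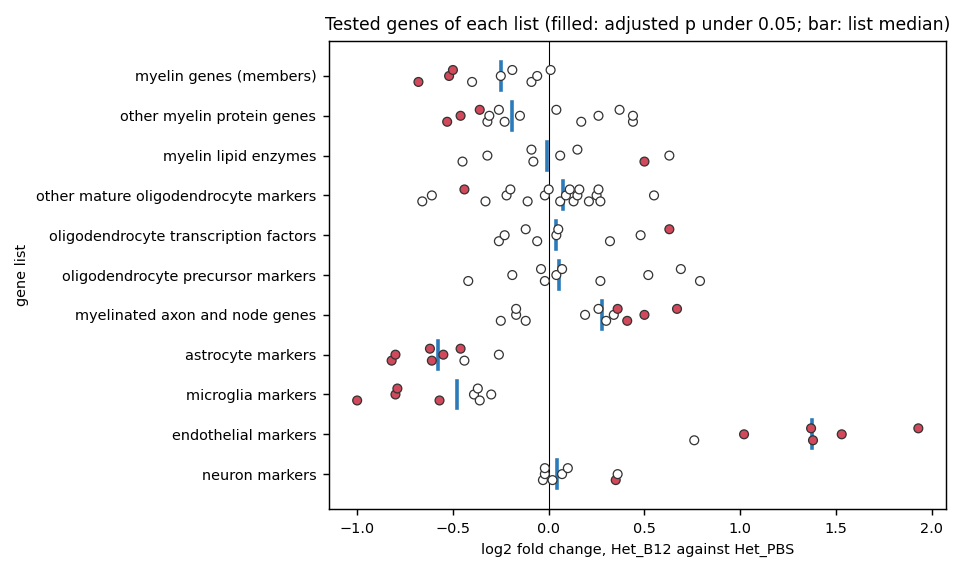
log2 fold change of Het_B12 against Het_PBS for the tested genes of each list drawn (points, filled where the edgeR adjusted p was under 0.05), with a bar at the list median. The Schwann cell, forebrain, cerebellar, and brainstem and hindbrain lists are not drawn. The myelin genes have a median of -0.246 and the other mature oligodendrocyte markers 0.0755, while astrocyte markers lie at -0.579, microglia markers at -0.476 and endothelial markers at 1.37.

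Markers of other brain cells and regions moved in the same comparison. Of 8 astrocyte markers 6 fell, with a median of -0.579, and their summed level ran from 3663 to 4619 CPM in Het_PBS and from 2323 to 3031 in Het_B12. Of 8 microglia markers 4 fell (median -0.476), with sums of 468 to 588 and 319 to 393 CPM. Of 6 tested among 8 endothelial markers 5 rose (median 1.37), with sums of 54.4 to 90.3 and 152 to 211 CPM. Over the 20 alternatives 4 to 7 astrocyte and 4 to 5 microglia markers fell, and 2 to 6 endothelial markers rose. None of these sums overlapped between the 2 groups, and no marker of these 3 lists was at 0 reads in all libraries of a group.

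Of 8 neuron markers 1 rose, Rbfox3, and 0 to 2 over the alternatives (median 0.0429; sums of 4746 to 5408 and 4965 to 5516 CPM). None of the 8 forebrain markers passed (median 0.325; 285 to 356 and 313 to 399 CPM). Of 8 cerebellar markers 4 rose, and 2 to 4 over the alternatives (median 0.487; 604 to 757 and 681 to 885 CPM), and none of 3 tested among 8 brainstem and hindbrain markers passed (median 0.232; 41 to 158 and 35 to 152 CPM). Both tested Schwann cell markers lay at or below 0, with a median of -0.0859, and did not pass. The part played by these markers, by Gm42418 and by the dissected tissue in the values of the myelin genes was not tested.

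Against WT_PBS, 2 of the 14 other myelin protein genes fell in Het_B12, Tppp (-0.39 ± 0.1, edgeR adjusted p = 0.0131) and Bcas1 (-0.47 ± 0.12, 0.0132), and the junctional adhesion gene Jam3 rose (0.82 ± 0.23, 0.0231). Tppp passed under each of the 20 alternatives. Bcas1 was lost without WT_PBS 5 (0.0931) or Het_B12 1, and Jam3 without WT_PBS 4, WT_PBS 5 (0.0991) or Het_B12 2. The small heat shock protein gene Cryab, among the mature oligodendrocyte markers, rose (0.67 ± 0.16, 0.00816) and passed under each alternative. Pex5l (0.46 ± 0.13, 0.0298) and Zfp536 (0.63 ± 0.18, 0.0244) rose as the only calls of their lists but passed under 12 and 14 of the 20. Pex5l was lost without WT_PBS 1, 4 or 5 or Het_B12 1, 2 or 3 (largest adjusted p 0.102), and Zfp536 without WT_PBS 2, 4 or 5 or Het_B12 1 or 2 (0.0815).

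Of the 12 axon and node genes 5 rose against WT_PBS, where 3.22% of all genes passed as higher. Scn8a (0.5 ± 0.11, edgeR adjusted p = 0.00247) passed under each of the 20 alternatives and Ank3 (0.37 ± 0.09, 0.0113) under 19. Kcna2, Kcna1 and Nfasc passed under 7, 9 and 10 of the 20, with largest adjusted p-values of 0.171, 0.144 and 0.188; each was lost on leaving out any of at least 7 single libraries, WT_PBS 1 and Het_B12 1 among them. No precursor marker passed. Of the markers of other cells, 5 of 8 of astrocytes and 3 of 8 of microglia fell, 5 of 6 tested of endothelium rose, and 1 of 8 of neurons rose, Gad2. The summed astrocyte markers ran from 3080 to 4565 CPM in WT_PBS, the summed microglia markers from 376 to 613 and the summed endothelial markers from 54.3 to 88.5. Their part in the values of Mobp and Ermn in this comparison was not tested. No marker of a brain region or of Schwann cells passed. In Het_PBS against WT_PBS no gene of any of the 14 lists passed.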

How the data were processed

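The counts are whole, unnormalised reads per gene for each library, in 1 table as deposited by the authors. QuantSeq was used for the libraries, per the labels' protocols, and the submitters' processing notes name STAR, HTSeq, edgeR and mm10; versions, annotation and strand setting are not stated there. All columns were mapped to samples by their labels (0 left unmapped), and no 2 libraries were identical. In R 4.3.3 with edgeR 4.0.16, genes were kept by filterByExpr (minimum count 10) and scaled by TMM. One quasi-likelihood fit with a mean per group over the 15 libraries (12 residual degrees of freedom, biological coefficient of variation 0.181) gave 3 contrasts and an F test, with Benjamini-Hochberg adjustment over 11718 genes and calls at 0.05. On simulated counts for 11718 genes, the test of Het_B12 against Het_PBS recovered 72% of genes changed 2-fold and 24% of those changed 1.5-fold, with 2.04% of its calls false.

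The 9 genes, the 14 other lists and the tests were chosen with earlier results of these data known. Named genes outside the set were the 8 closest by Pearson's r with its mean z-score of log2 CPM (prior count 2), up to 4 per list with the smallest p, and any of 5 or fewer that passed. Of 30386 identifiers, 30348 matched GENCODE M21. Libraries with the same replicate number in different groups did not deviate together (r of -0.09 to 0.11), so replicate numbers were not treated as pairs. That check did not compare Het_PBS 5 with Het_B12 1, whose labels share a number that may be an animal's. Alternatives included DESeq2 1.42.0, limma-voom (limma 3.58.1), other filters and scaling, an exact permutation test, a replicate block and leaving out libraries; an offset for transcript length was added after seeing the data. Intervals are at 95%, and the floor of 3 reads covers counting error only.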

Additional observations from a re-analysis of the deposited data

Results flagged for a closer look

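Among 72 combinations of a gene or marker sum with a group of 5 libraries, 3 had a library that stood apart by the gap to its nearest neighbour relative to the group's range. Chance gives about 1 in 20 such groups. The summed oligodendrocyte transcription factors were 639 CPM in Het_PBS 1, where the next library stood at 519.9 CPM. The summed oligodendrocyte precursor markers were 214 CPM in Het_PBS 1, where the next was at 173 CPM. Het_PBS 1 was also the highest of its group for 8 of the 9 myelin genes. The summed brainstem and hindbrain markers were 158 CPM in Het_PBS 3, where the next was at 57.8 CPM. None of the 9 myelin genes had such a library on its own. Mal came nearest and fell just short of the cutoff. It was at 191 CPM in Het_B12 1, where the next library stood at 249.9 CPM, a gap of 0.709 of the range.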

How the results depend on the processing

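Mobp passed under every alternative with an adjusted p in both comparisons of Het_B12, and the median of the 9 genes stayed below 0 in both, at -0.341 to -0.118 for the vitamin and -0.267 to -0.115 against WT_PBS; for genotype it ran from -0.0426 to 0.182. The replicate block changed no call among the 9 (0, 3 and 2 for genotype, vitamin and Het_B12 against WT_PBS) and turned Mog in the genotype comparison to 0.03. Leaving out single libraries gave 1 to 4 genes called of the 9 for the vitamin (4 without Het_PBS 2, 1 without Het_B12 1) and 1 to 3 against WT_PBS (3 without WT_PBS 3, 1 without WT_PBS 5). Over all genes it gave 549 to 743, 449 to 1268 and, for genotype, 0 to 14 calls. Without Het_PBS 5 and Het_B12 1 together the vitamin comparison called 437 genes and 1 of the 9, and genotype 2 genes. Without WT_PBS 3 and Het_PBS 5 together the calls were 1390 against WT_PBS and 1 for genotype. With no filter on low counts genotype had 40 calls. The cause of these shifts was not tested. The values that changed sign passed in none of these fits. For genotype, Mog was 0.002 with no filter, 0.01 by limma-voom and 0.0036 in the exact permutation test, and Cldn11 -0.0046 without WT_PBS 3 and Het_PBS 5. For the vitamin, Mag was -0.00065 with only 2 groups fitted and -0.05 without WT_PBS 3 and Het_PBS 5, and Mog 0.0093 with the length offset. Against WT_PBS, Mog was 0.0057 by limma-voom. Leaving out single libraries, genotype values ran from -0.18 to 0.18 (Mog), -0.04 to 0.12 (Cnp), -0.04 to 0.25 (Cldn11) and -0.18 to 0.09 (Ermn). Vitamin values ran from -0.05 to 0.13 (Mag), -0.2 to 0.11 (Mog) and -0.21 to 0.2 (Opalin), and those against WT_PBS from -0.26 to 0.08 (Mbp), -0.19 to 0.12 (Mog) and -0.24 to 0.0017 (Cldn11). Counting error was largest for Opalin (12.1% to 13.8%) and Mog (9.35% to 10.4%). The spread between libraries was above it for Mog in each group (15.6% to 35.8%). For Opalin it was above it in Het_PBS (43.7%) and Het_B12 (15.5%) but not in WT_PBS (9.63%). The smallest p of the exact permutation test of 5 against 5, two-sided, was 0.00794.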
